A study of Mus musculus with 2 samples.

Results

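Messenger RNA levels of 10 genes that carry out AU-rich element (ARE) decay and microRNA (miRNA) silencing were compared between E14 cells and Sox2 T258A cells. The 10 genes were Zfp36l1, Zfp36l2, Khsrp, Elavl1, Ago1, Ago2, Tnrc6a, Tnrc6b, Tnrc6c and Cnot1. They were taken by gene symbol from a table of 24532 genes, and each symbol matched 1 gene. E14 is an established mouse embryonic stem cell (ESC) line that served as the wild-type control. The Sox2 T258A cells were grown from single E14 cells in which CRISPR-Cas9 editing placed the threonine-to-alanine change T258A in 1 allele of the transcription factor gene Sox2, leaving the other allele wild type, and whether the library came from 1 clone or several is not stated. This residue can carry O-GlcNAc, a single sugar added to proteins inside the cell. Per the study's methods, the parental cells grew in serum with leukemia inhibitory factor, whereas edited clones were picked and routinely kept with 2i, a Mek inhibitor (PD0325901) plus a Gsk3 inhibitor (CHIR99021), both withdrawn for some passages before use. Genotype, clonal origin and culture history therefore differ together and cannot be told apart. Each genotype had 1 library of polyadenylated RNA, so the differences cannot be set against the spread between cultures, and p-values are not given. The intervals printed are 95% Clopper-Pearson intervals that cover the counting of reads only, since PCR copies of 1 molecule are counted as separate reads.

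AREs are stretches rich in A and U in the 3′ untranslated region (UTR) of short-lived mRNAs, such as those of growth regulators and cytokines. Proteins of the Zfp36 family and Khsrp bind these stretches and bring in the machinery that removes the poly(A) tail, whereas Elavl1, also known as HuR, binds like sequences and protects the mRNA. In miRNA silencing, an Argonaute protein loaded with a miRNA pairs with a target mRNA through the seed of the miRNA, and a Tnrc6 (GW182) protein links Argonaute to the same CCR4-NOT deadenylase complex, of which Cnot1 is the scaffold. In ESCs this route is used by miRNAs of the miR-290 and miR-302 clusters, whereas let-7 miRNAs act mainly in differentiated cells.

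The letters that these proteins and miRNAs read are shown here because both arms of the pathway act through short matches in 3′ UTRs. The nonamer TTATTTATT, written as DNA, is a well-known binding sequence of Zfp36 proteins. It was found in the 3′ UTRs of 4 of the 10 genes themselves, namely Zfp36l1, Zfp36l2, Elavl1 and Ago2. Windows around 5 of these sites, read from GENCODE M21 transcripts of the GRCm38 (mm10) build, are given 5′ to 3′ on the transcribed minus strand with the nonamer in capitals.
Zfp36l1, chr12:80108169-80108193: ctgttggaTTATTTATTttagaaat
Zfp36l2, chr17:84184916-84184940: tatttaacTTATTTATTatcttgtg
Elavl1, chr8:4285790-4285814: catgaaaaTTATTTATTtatttatt
Ago2, chr15:73105735-73105759: aatggaatTTATTTATTcttccatt
Ago2, chr15:73097841-73097865: aatactttTTATTTATTttgtgcct

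In Elavl1 the nonamer occurred 8 times, overlaps included, within a run of repeated ATTTA units of which the window shows the beginning. The last Ago2 site lies in a 3′ UTR of 11064 bases in the GENCODE transcript and outside the gene's span in RefSeq, which starts at 73101625. Of 8804 genes past the expression filter described below that had an annotated 3′ UTR, 6.89% held the nonamer, and 14.3% did so in the longest of 5 length groups, in which 7 of the 10 genes fall. The shorter ATTTA pentamer was present in all 10 genes, from 1 copy in Khsrp and in Cnot1 to 20 copies in Ago2, beside 67.4% of the genes with a 3′ UTR and 90.8% of those in the longest group. The pentamer therefore sets the 10 genes little apart from other genes with long transcripts. A match is a description of the sequence and not evidence of binding.

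Mature miRNAs are short enough to print, and some of the miR-290 and miR-302 clusters are shown with let-7a-5p for comparison. The seed at bases 2 to 8 is in capitals (RefSeq, GRCm38.p6). The polyadenylated RNA table does not measure them.
miR-291a-3p: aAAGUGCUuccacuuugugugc
miR-294-3p: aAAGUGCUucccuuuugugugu
miR-295-3p: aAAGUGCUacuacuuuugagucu
miR-302b-3p: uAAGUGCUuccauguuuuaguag
let-7a-5p: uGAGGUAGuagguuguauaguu

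The first 4 share the seed AAGUGCU, and let-7a-5p differs from them. The DNA letters that match the shared seed, AGCACTT, occurred in the 3′ UTRs of 4 of the 10 genes, with 2 copies in Tnrc6b and 1 each in Zfp36l2, Elavl1 and Tnrc6c. The same letters were present in 15.4% of genes with a 3′ UTR and in 31.7% of those in the longest length group. The letters CTACCTC, which match the let-7 seed, occurred 3 times in Ago2 and 1 time in Khsrp, beside 9.44% of all genes with a 3′ UTR and 18.6% of the longest group.

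The libraries held 60263536 assigned reads in E14 and 44609228 in Sox2 T258A cells. Levels are given as TPM, which scale reads to transcript length and to the library. Following the study, genes with at least 10 TPM in at least 1 library were compared, which left 9094 genes, and a difference of more than 2-fold was the threshold. All 10 genes were at 10 TPM or more in both libraries, so none passed the filter through 1 library alone. Sox2 itself, whose edited allele is not distinguished by gene counts, was at 373 TPM in E14 and 274 TPM in Sox2 T258A cells. Among all 9094 genes the median log2 TPM ratio (Sox2 T258A over E14) was 0.08, with quartiles of -0.23 and 0.39. Of 8 ESC markers 3 were higher and 5 lower in Sox2 T258A cells, with a summed level of 12109 TPM in E14 and 9073 TPM in Sox2 T258A cells. A large part of this sum was 1 gene, Dppa5a, at 6877 TPM in E14 and 4429 TPM in Sox2 T258A cells. Of 8 primitive endoderm markers 3 passed the filter and all 3 were lower, with a summed level of 130 against 80.8 TPM. Of 8 fibroblast markers only Thy1 passed the filter, at 40.1 against 11.4 TPM, and it made up most of their summed level of 43.1 against 16.6 TPM. The fibrillar collagen genes were low in both libraries but did not follow Thy1, with 15 reads in E14 and 151 in Sox2 T258A cells for Col3a1, 43 and 109 for Col1a2, and 497 and 370 for Col1a1. Col6a3 had 2 reads and 0 reads, and Postn, Lum and Dcn had no read in either library. The part that these shifts have in the values below was not tested. In bulk RNA, fewer cells that express a gene and less RNA per cell cannot be told apart.

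All 10 genes had a higher TPM in Sox2 T258A cells than in E14, and the counting interval of each log2 ratio lay above 0. This count has to be read against a background in which 57.3% of all genes past the filter, and 81.6% of those in the longest length group, also had a ratio above 1. Only Zfp36l2 was more than 2-fold higher, beside 4.17% of all genes past the filter and 8.07% of the longest group. None of the 10 was more than 2-fold lower, beside 4.07% of all genes. The median log2 ratio of the 10 genes was 0.61, or 1.52-fold, and single values ran from 0.28 to 1.17. Reads over the 10 genes summed to 91931 in E14 and to 99989 in the smaller Sox2 T258A library, and 5 genes (Zfp36l2, Tnrc6a, Ago1, Ago2 and Cnot1) had more reads there without any scaling.

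**Figure D1:**
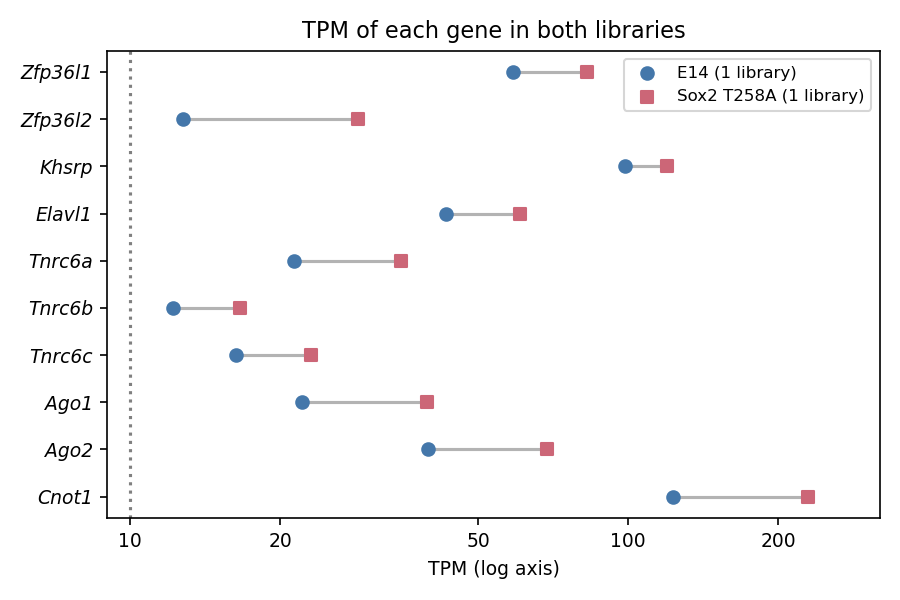
TPM of the 10 genes in the E14 library (circles) and the Sox2 T258A library (squares) on a log axis, with the 10 TPM filter as a dotted line. Each gene lies to the right of the filter in both libraries, and each square lies to the right of its circle, with the widest gap at Zfp36l2.

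In E14 the levels ran from 123 TPM for Cnot1 and 98.8 TPM for Khsrp down to 12.8 TPM for Zfp36l2 and 12.2 TPM for Tnrc6b. The order was nearly the same in Sox2 T258A cells. Ago2 stood above Elavl1 there, at 68.8 against 60.8 TPM, whereas in E14 it stood below, at 39.6 against 43.1 TPM. Zfp36l2, at 28.7 TPM, likewise stood above Tnrc6c, at 23.0 TPM, in Sox2 T258A cells only. No spread between cultures is known for any neighbours in this order.

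Transcript length needs to be set beside every ratio, because long transcripts ran higher in the Sox2 T258A library. The genes past the filter that had a GENCODE transcript were put into 5 groups of equal size by transcript length, and the median log2 ratio went from -0.16 in the shortest group through -0.02, 0.07 and 0.17 to 0.39 in the longest, which began at 4712 bases. Across 9047 genes Spearman's rho between length and log2 ratio was 0.38, given as a description, since genes of 1 library pair are not independent replicates. The median transcript of the 10 genes was 7705 bases long, beside 2861.5 bases for all genes past the filter, and their median 3′ UTR was 2465.5 bases, beside 988 bases. Of the 10, 7 genes, Elavl1, Ago1, Ago2, Tnrc6a, Tnrc6b, Tnrc6c and Cnot1, fell into the longest group, 2 (Zfp36l2 and Khsrp) into the next and 1 (Zfp36l1) into the middle group. All 10 were above the median of their own group, and 6 of 10 were above its upper quartile, namely Zfp36l1, Zfp36l2, Tnrc6a, Ago1, Ago2 and Cnot1. In the narrower set of 453 genes with transcripts of at least 7583 bases, which holds Tnrc6a, Tnrc6b, Tnrc6c, Ago2 and Cnot1, the median log2 ratio was 0.53 and the upper quartile 0.80, and only Cnot1 of these 5 was above that quartile. The median distance from the median of the 5 groups was 0.37 on the log2 scale, compared with 0.61 for the ratio itself.

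**Figure D2:**
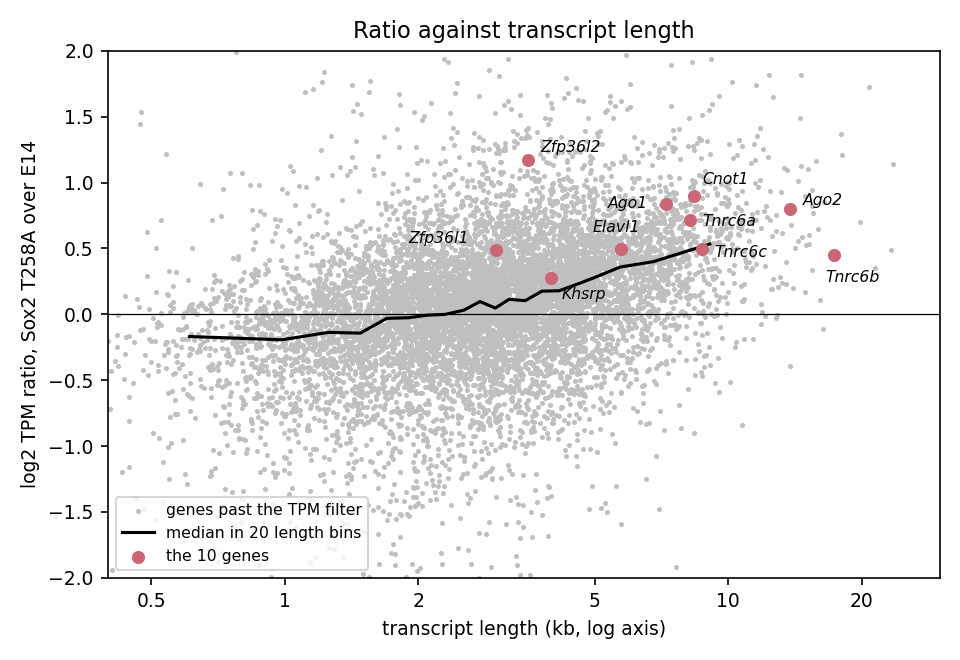
Log2 TPM ratio (Sox2 T258A over E14) against transcript length in kilobases (log axis) for genes past the TPM filter (grey points, shown between -2 and 2), with the median in 20 length bins as a black line and the 10 genes in red. The line climbs with length, Zfp36l2 and Zfp36l1 lie well above it, and Tnrc6c and Khsrp lie close to it.

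Zfp36l1 and Zfp36l2 encode CCCH zinc finger proteins that bind AREs and recruit the CCR4-NOT complex. Zfp36l1 (gene ID 12192, chr12:80107760-80113013) had 5529 reads in E14 and 5205 in Sox2 T258A cells. Its level was 58.8 TPM in E14 and 82.6 TPM in Sox2 T258A cells, a log2 ratio of 0.49 (interval 0.44 to 0.55). The middle length group, to which its transcript of 2990 bases belongs, had a median log2 ratio of 0.07 and an upper quartile of 0.34, and 16.0% of its genes had a higher ratio than Zfp36l1. This gene was thus well above most genes of like length, although it did not reach the 2-fold threshold.

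Zfp36l2 (gene ID 12193, chr17:84183924-84187947) showed the largest ratio of the 10 genes. It had 1421 reads in E14 and 2141 in the smaller Sox2 T258A library. Its level was 12.8 TPM in E14 and 28.7 TPM in Sox2 T258A cells, a 2.25-fold difference and a log2 ratio of 1.17 with an interval of 1.07 to 1.27 that lay wholly past 2-fold. Only 42 of 1809 genes in its length group, or 2.32%, had a higher ratio. It was also the least deeply read of the 10 genes, so its interval is the widest.

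Both genes were therefore higher in Sox2 T258A cells, but not by the same amount. The log2 ratio of Zfp36l2 to Zfp36l1 was 0.68 higher (interval 0.57 to 0.79) in Sox2 T258A cells than in E14. Zfp36l1 made up 82.2% of the TPM of the pair in E14 and 74.2% in Sox2 T258A cells. The founding member of the family, Zfp36 (tristetraprolin), which was not among the 10 genes, went from 914 to 1284 reads and from 16.4 to 34.5 TPM, a log2 ratio of 1.07. The difference between Zfp36l2 and Zfp36 in this respect was 0.10 on the log2 scale, with an interval of -0.06 to 0.26 that includes 0. Summed over Zfp36, Zfp36l1, Zfp36l2 and Zfp36l3, the level of the family was 89.0 TPM in E14 and 148 TPM in Sox2 T258A cells, and the share of Zfp36l1 was 66.1% in E14 and 55.9% in Sox2 T258A cells. Zfp36l1 remained the most abundant member in both libraries.

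Khsrp encodes KSRP, a KH-domain protein that binds AREs to promote decay and also binds some miRNA precursors. Khsrp (gene ID 16549, chr17:57021049-57031507) had 12440 reads in E14 and 10088 in Sox2 T258A cells. Its level was 98.8 TPM in E14 and 119.5 TPM in Sox2 T258A cells, and its log2 ratio of 0.28 (interval 0.24 to 0.31) was the smallest of the 10. In its length group 39.5% of genes had a higher ratio, so Khsrp lay inside the central range of genes of like length.

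Elavl1, the stabilizing counterpart of these decay factors, had 8186 reads in E14 and 7733 in Sox2 T258A cells. Elavl1 (gene ID 15568, chr8:4284781-4325140) was at 43.1 TPM in E14 and 60.8 TPM in Sox2 T258A cells, a log2 ratio of 0.50 (interval 0.45 to 0.54). Its transcript of 5743 bases is in the longest group, where 38.7% of genes had a higher ratio. Elavl1 was thus near the middle of the genes with long transcripts. The paralog Elavl2 was at 10.2 TPM in E14 and 21.2 TPM in Sox2 T258A cells, and the log2 ratio of Elavl2 to Elavl1 was 0.58 higher (interval 0.47 to 0.70) in Sox2 T258A cells. Elavl1 made up 74.4% of the TPM of the Elavl family in E14 and 68.6% in Sox2 T258A cells.

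Ago1 and Ago2 encode Argonaute proteins, which hold the miRNA, and Ago2 is the family member that can also cut a perfectly paired target. Ago1 (gene ID 236511, chr4:126435012-126468707) had 5049 reads in E14 and 6025 in Sox2 T258A cells, with levels of 22.1 and 39.5 TPM. Its log2 ratio was 0.84 (interval 0.78 to 0.89), and 13.4% of genes in the longest group had a higher ratio. Ago2 (gene ID 239528, chr15:73101625-73184947) had 10019 reads in E14 and 11663 in Sox2 T258A cells, with levels of 39.6 and 68.8 TPM. Its log2 ratio was 0.80 (interval 0.76 to 0.84), and 15.4% of genes in the longest group had a higher ratio.

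Both Argonautes were higher by nearly the same factor and lay above the upper quartile of 0.65 of the longest of the 5 length groups. Ago2 was not above the upper quartile of 0.80 of the narrower set of transcripts of at least 7583 bases. The log2 ratio of Ago1 to Ago2 differed by 0.04 between the libraries, with an interval of -0.03 to 0.10 that includes 0. With the length trend removed their log2 ratios stood further apart, at 0.52 for Ago1 and 0.35 for Ago2. The GENCODE transcript of Ago2 is the longer of the pair, at 13800 against 7227 bases. Ago2 lies in the last of the 20 length bins, which began at 7583 bases, and Ago1 lies in an earlier bin. A different bin median was therefore subtracted from each. CPM (reads scaled to the library total) divided by FPKM comes to 8157 bases for Ago2 and 7361 bases for Ago1 in E14, so the length behind the deposited Ago2 values was shorter than that transcript. Ago2 made up 60.7% of the Argonaute TPM in E14 and 60.9% in Sox2 T258A cells, and Ago1 33.9% and 35.0%. Ago3, at 2.55 and 3.96 TPM, and Ago4, at 0.946 and 0.699 TPM, stayed under the filter in both libraries. The summed Argonaute level was 65.2 TPM in E14 and 113 TPM in Sox2 T258A cells.

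The Tnrc6 genes encode the GW182 proteins that bind Argonaute and connect it to the deadenylases. Tnrc6a (gene ID 233833, chr7:123031101-123195296) had 5686 reads in E14 and 6263 in Sox2 T258A cells, with levels of 21.3 and 35.0 TPM and a log2 ratio of 0.72 (interval 0.66 to 0.77). Tnrc6b (gene ID 213988, chr15:80711313-80941086) had 6621 and 6065 reads, with levels of 12.2 and 16.6 TPM and a log2 ratio of 0.45 (interval 0.40 to 0.50). Tnrc6c (gene ID 217351, chr11:117653703-117763439) had 4489 and 4244 reads, with levels of 16.3 and 23.0 TPM and a log2 ratio of 0.50 (interval 0.44 to 0.56). Tnrc6a was thus the highest of the 3 in both libraries and also had the largest ratio.

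In the longest group 19.3% of genes had a higher ratio than Tnrc6a, whereas 43.3% exceeded Tnrc6b and 38.5% exceeded Tnrc6c. The transcript of Tnrc6b, at 17332 bases, is the longest of the 10 genes. The median log2 ratio of 0.53 among the 453 genes with transcripts of at least 7583 bases is above the ratio of Tnrc6b and of Tnrc6c, so these 2 genes were not high for genes of that length. The log2 ratio of Tnrc6a to Tnrc6b was 0.27 higher (interval 0.19 to 0.34) in Sox2 T258A cells, and that of Tnrc6a to Tnrc6c was 0.22 higher (interval 0.14 to 0.30). Tnrc6c and Tnrc6b differed from each other by 0.05, with an interval of -0.03 to 0.12. Tnrc6a made up 42.8% of the summed Tnrc6 level of 49.8 TPM in E14 and 46.9% of 74.7 TPM in Sox2 T258A cells.

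Cnot1 encodes the scaffold on which the CCR4-NOT deadenylase complex is built, and both the Zfp36 proteins and the Tnrc6 proteins contact the complex. Cnot1 (gene ID 234594, chr8:95718931-95808113) was the most deeply read of the 10 genes, with 32491 reads in E14 and 40562 in Sox2 T258A cells. Its level was 123 TPM in E14 and 229.6 TPM in Sox2 T258A cells, a 1.86-fold difference and a log2 ratio of 0.90 (interval 0.88 to 0.92). In the longest group 11.2% of genes had a higher ratio, the smallest share among the 7 genes in that group. The 3′ UTR of Cnot1, at 949 bases, is the shortest of the 10 although its transcript is 8364 bases long.

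Cnot1 overlaps Setd6 in the annotation, and the handling of strand in counting is not stated, so reads in the shared stretch may belong to either gene. Setd6 had 5605 reads in E14 and 3440 in Sox2 T258A cells, a log2 TPM ratio of -0.13, which is opposite in direction to Cnot1 and rests on far fewer reads. Of the 10 other CCR4-NOT subunits listed, 9 passed the filter and 8 of these were higher in Sox2 T258A cells, beside 57.3% of all genes past the filter. Counted among the 8 were Cnot3 (log2 ratio 0.03) and Cnot10 (0.01), whose counting intervals include 0 and which were below the median of their length group. The median log2 ratio of the 9 subunits was 0.32, and all 9 were below Cnot1. This order depended on transcript length, since with the length trend removed Cnot4 (0.80), Cnot7 (0.59) and Cnot6 (0.53), whose transcripts are 3473, 2615 and 5736 bases long, were above Cnot1 (0.45).

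**Figure D3:**
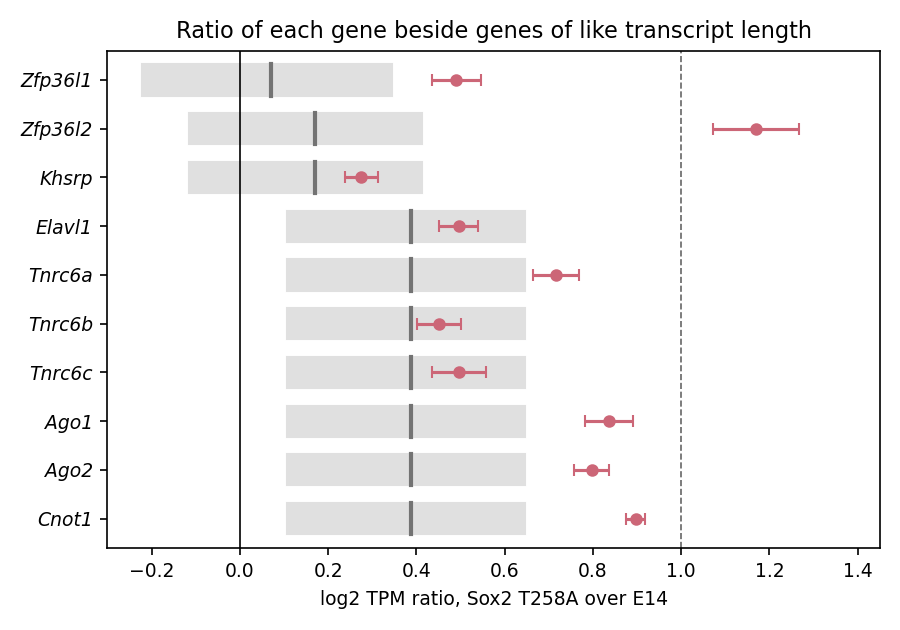
Log2 TPM ratio (Sox2 T258A over E14) of the 10 genes with 95% counting intervals (red), beside the median (dark bar) and the central 50% range (grey box) of all genes in the same of 5 length groups, with a dashed line at 2-fold. Zfp36l1, Zfp36l2, Tnrc6a, Ago1, Ago2 and Cnot1 lie to the right of their boxes, and Khsrp, Elavl1, Tnrc6b and Tnrc6c lie inside them.

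When the length trend was removed, by subtracting the median of 20 length bins and adding back the median of all genes, the ratios of the 10 genes spread further apart. Zfp36l2 stayed at a log2 ratio of 1.15. Zfp36l1, Ago1, Cnot1 and Ago2 followed at 0.53, 0.52, 0.45 and 0.35. Tnrc6a, Elavl1 and Khsrp were at 0.27, 0.22 and 0.18, and Tnrc6c and Tnrc6b were at 0.05 and 0.00. Tnrc6a thus kept the largest ratio of the Tnrc6 genes, while Tnrc6b and Tnrc6c no longer exceeded the median of 0.08 of all genes. The 10 genes also lie on 7 chromosomes whose genes did not have the same median ratio. The median log2 ratio of chromosome 8, which holds Elavl1 and Cnot1, was 0.29 over 547 genes, and that of chromosome 15, which holds Ago2 and Tnrc6b, was -0.14 over 395 genes. Whether these chromosome medians have a part in the values of the 4 genes was not tested.

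The wider pathway was described with 6 lists of genes that do not contain the 10. Of 17 other ARE-binding proteins 14 passed the filter, and 10 were higher and 4 lower in Sox2 T258A cells, with a median log2 ratio of 0.60. Among those higher, Rc3h1 (7.15 TPM in E14), Zc3h12a (7.52 TPM) and Rc3h2 (9.98 TPM) passed the filter through the Sox2 T258A library alone. The filter therefore fixed the direction of these genes, which are counted among the higher genes and in the median. Zfp36 and Elavl2, at log2 ratios of 1.07 and 1.06, were more than 2-fold higher, and the lowest was Pcbp2, a poly(C)-binding protein, at -0.37. The median was thus close to the 0.61 of the 10 genes, and its median distance from the length group was 0.24. Of 19 genes of CCR4-NOT and poly(A) shortening 18 passed the filter, with 11 higher, 7 lower, none past 2-fold and a median log2 ratio of 0.11, and 9 were above and 9 below the median of their length group. The ubiquitin ligase subunit Cnot4 was the highest at 0.82, and the poly(A)-binding protein gene Pabpc1 the lowest at -0.75, from 2517 TPM in E14 to 1502 TPM in Sox2 T258A cells.

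The lists for later steps of decay and for miRNA processing had medians between those of the lists above. Of 18 genes of decapping and 5′ decay 17 passed the filter, 14 higher and 3 lower, with none past 2-fold and a median log2 ratio of 0.27, and 12 of 17 were above the median of their length group. Their highest was Ddx6, a helicase that couples CCR4-NOT to decapping, at 77.8 TPM in E14 and 151 TPM in Sox2 T258A cells (log2 ratio 0.96), and their lowest was Lsm2 at -0.62. All 15 genes listed for the RNA exosome, which degrades RNA from the 3′ end, passed the filter. The list also holds genes of the associated Ski complex, Wdr61 among them. Of the 15, 10 were higher and 5 lower, and likewise 10 were above and 5 below the median of their length group. Their median was 0.19, with extremes at Exosc1 (0.69) and Wdr61 (-0.38). Of 10 genes of miRNA processing and the other Argonautes 8 passed the filter, 7 higher and 1 lower, with a median of 0.23. Set beside genes of like length, however, 4 were above and 4 below, and the median distance was -0.02. Dgcr8, the RNA-binding partner of Drosha in the first cut of miRNA precursors, was the only gene of this list past 2-fold, at 23.6 TPM in E14 and 53.3 TPM in Sox2 T258A cells (log2 ratio 1.17). The gene that was lower was Tarbp2, a partner of Dicer, at -0.53.

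The substrates of the pathway did not move in 1 direction. Of 25 mRNAs known to carry AREs 15 passed the filter, 8 higher and 7 lower, with a median log2 ratio of 0.08, beside 0.08 for all genes. Ier3, counted among the 8, was at 8.59 TPM in E14 and 14.4 TPM in Sox2 T258A cells. It passed the filter through the Sox2 T258A library alone, so the filter fixed its direction, and the median of the list would be lower without it. Myc (27.1 to 102 TPM, log2 ratio 1.91), Junb (24.1 to 76.9 TPM, 1.67) and Mycn (45.5 to 118 TPM, 1.38) were more than 2-fold higher in Sox2 T258A cells. Vegfa (56.5 to 18.4 TPM, -1.62) and Nanog (527 to 251 TPM, -1.07) were more than 2-fold lower. These 5 values are levels of mRNA and do not separate synthesis from decay.

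**Figure D4:**
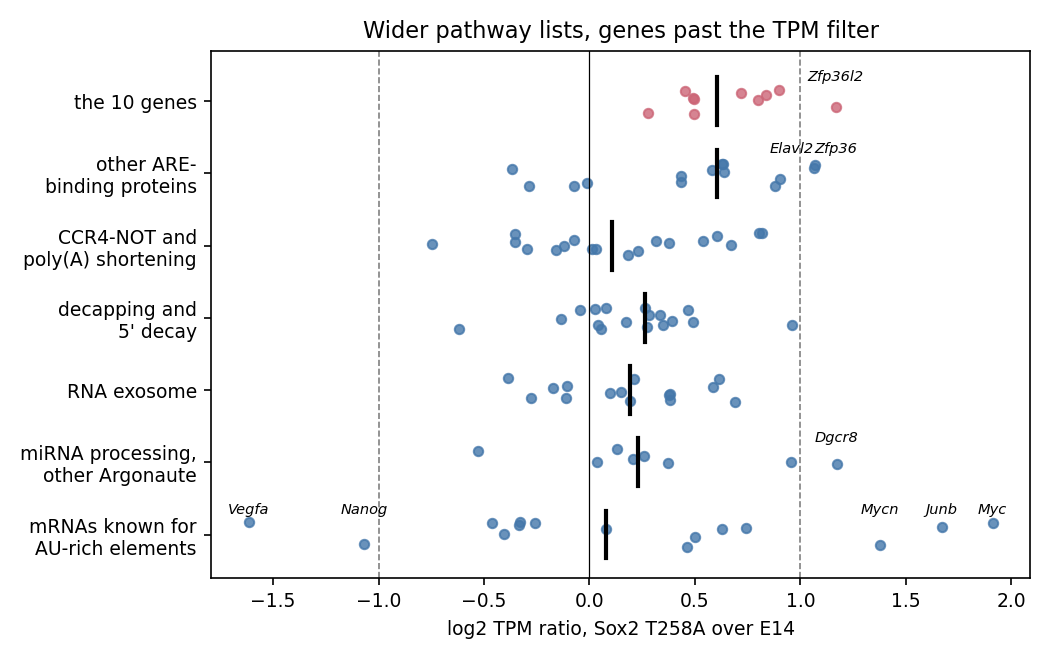
Log2 TPM ratio (Sox2 T258A over E14) of the 10 genes (red) and of the genes past the TPM filter in 6 other pathway lists (blue), with the median of each as a black bar, dashed lines at 2-fold in either direction and names for genes past 2-fold. The medians are 0.61 for the 10 genes, 0.60 for other ARE-binding proteins and between 0.08 and 0.27 for the remaining lists, and mRNAs known for AREs spread widest.

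The promoters of the 10 genes were searched for CATTGT, the core that Sox proteins bind, on both strands. RefSeq promoter windows around the transcript start (GRCm38.p6) were matched for 7 of the 10 genes (9 windows) and did not include Zfp36l2, Ago2 and Cnot1. The letters were found in 0 of 9 windows, beside 12.6% of 32851 promoters of the same length. The GC content of the 9 windows ran from 44.7% to 75.7%, beside a median of 52.7% for all these promoters, and the share was not matched for GC content. This says only that the letters CATTGT are not in these windows.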

How the data were processed

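RNA-seq of polyadenylated RNA from E14 and Sox2 T258A cells was analyzed, with 1 library per genotype. The submitters' processing notes name bcl2fastq 2.20.0, Trimmomatic, HISAT2 2.1.0 and StringTie 2.1.3b, and the mm10 build. The authors' table gives whole, unnormalized read counts per gene. The authors scaled the FPKM values to transcript length and library. Dividing the deposited TPM by FPKM gave 1.94 throughout E14 and 2.15 throughout Sox2 T258A cells for the 10 genes. Treatment of strand and of reads shared between genes is not given in the sources used here, so reads of paralogs or overlapping genes may be split.

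Log2 TPM ratios (Sox2 T258A over E14) were taken without a pseudocount. Genes that reached 10 TPM in either library were compared, with a 2-fold threshold, as in the study's methods. Exact 95% Clopper-Pearson intervals were computed from read counts and placed on the TPM scale. Transcript length, GC content and 3′ UTRs came from GENCODE M21 (GRCm38) and were found for 99.5% of genes past the filter. The 10 pairs of paralogs or partners were compared by the change in their log2 ratio. The genes named beside the 10 were Sox2, other paralogs, and in each list the highest, the lowest and all past 2-fold. Marker and overlapping genes were added as checks. Cnot3, Cnot6, Cnot7, Cnot10, Dppa5a and the single fibroblast and primitive endoderm markers were named after their values were seen. So were the listed genes that passed the filter through 1 library alone. The 10 genes and all lists were chosen with earlier results of these data known. Alternatives were other pseudocounts, filters and fold thresholds, TMM (edgeR 4.0.16) and DESeq2 1.42.0 size factors, CPM, FPKM, centring, and removal of trends on length and GC content. Python 3.11.15, pandas 2.3.3 and scipy 1.17.1 were used. The scripts were tested on simulated data. With 1 library per genotype no model was fitted and no test was run.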

Additional observations from a re-analysis of the deposited data

How the results depend on the processing

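All 10 genes were higher in Sox2 T258A cells under each pseudocount, filter and scaling tried, and 0 of 10 were more than 2-fold lower under every setting. Removing the length trend left 9 or 10 genes with a log2 ratio above 0. Tnrc6b turned to -0.021 when trends on length and GC content were removed. It turned to -0.29 when a line joining the medians of 20 length bins on log2 length was removed, an alternative chosen after seeing the data. Past the last bin median, where Tnrc6b and, by its GENCODE length, Ago2 lie, that line was carried on at its last slope. With the line removed Ago2 came to 0.16, although the length behind its deposited values was shorter, at 8157 bases. The median with the line, given below, uses the GENCODE length of Ago2. Each removal added back the median of all genes, 0.08, and Tnrc6b and Tnrc6c stayed below that median in each. The median log2 ratio of 0.61 moved to 0.46 with CPM, 0.46 with FPKM, 0.52 when centred on all genes, 0.31 with the length trend removed, 0.31 with length and GC content, 0.27 with the line, and 0.72 when the filter was raised to 20 TPM, which drops Tnrc6b. The count of genes more than 2-fold higher was 1, but 5 at a 1.5-fold and 0 at a 3-fold threshold. Zfp36l2 stayed more than 2-fold higher under every scaling and trend removal. Recomputed with read counts, the change between the libraries stayed within counting error for the shares of Ago1, the 3 Tnrc6 genes and Zfp36l1 beside Zfp36l2. Shares of FPKM could not differ from shares of TPM, because these units differ by a constant factor within a library, so they are no check. The other family shares were not put through this comparison, and Elavl1 by read counts made up 80.9% in E14 and 76.5% in Sox2 T258A cells. No paired analysis was possible because each genotype had 1 library, and no replicate could be left out. Counting error is small at 1421 reads or more per gene, so depth does not limit these ratios, whereas the spread between cultures is unknown.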

Other observations

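Genes whose 3′ UTR held the letters read by the pathway were set beside genes of like transcript length without them. In the longest of 5 length groups, 257 genes with the ARE nonamer had a median log2 TPM ratio of 0.39 and 1539 genes without it 0.38, and the difference of the medians ran from -0.0036 to 0.0019 in the 3 longest groups. In the next to shortest group the median of 62 genes with the nonamer was -0.19, compared with -0.01 for 1730 genes without it. In the shortest group it was also lower, at -0.27 over 33 genes with the nonamer and -0.18 over 1597 genes without it. For the ATTTA pentamer the medians in the longest group were 0.39 over 1630 genes with it and 0.33 over 166 genes without it, a difference of 0.061 and the largest of the 4 motifs in that group, and the median with the pentamer was higher in 4 of 5 groups. For the match to the seed of miR-294-3p, the medians in the longest group were 0.35 over 570 genes and 0.40 over 1226 genes, and the median with the match was lower in 4 of 5 length groups. For the match to the let-7a-5p seed they were 0.36 over 334 genes and 0.39 over 1462 genes, and the median with the match was lower in all 5 groups. These are values of 1 pair of libraries, and the differences were not tested. Genes with and without a motif were not matched for 3′ UTR length.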
